A study of Rattus norvegicus with 12 samples.

Results

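Bone holds a dense vessel network, and 10 genes of endothelial cells and of vessel growth were followed across 12 arrays of rat calvaria (skull roof bone). They were taken by gene name from the non-control rows of the arrays, and all 10 of them (Pecam1, Cdh5, Emcn, Vwf, Kdr, Flt1, Tek, Angpt2, Esm1 and Angptl4) were among the 22718 gene names tested, of 34912 on the array. Their 15 probes all passed the filter on dim probes, and the probe that stood for each gene was well above background on all 12 arrays.

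The series compared bone ablated with an Er:YAG laser, drilled bone and control bone 72 h after surgery, with 4 samples in each group. An Er:YAG laser emits infrared light that water and bone mineral absorb strongly. The rats were 10 weeks old, and both ablated groups had a rectangular defect of 8 by 3 mm, made with a bur or with a laser at 20 Hz and 127 mJ per pulse. Control bone is named non-treated in the labels, whose treatment protocol adds that its periosteum was taken off while the bone itself was left intact. Strain, sex and the exact piece of bone collected are not given in the sources used here. The tissue is whole bone, a mixture of bone, marrow and vessel cells, and no label says that the samples of a group came from separate rats, so the p-values reflect the spread among these samples alone, and that spread may be technical.

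Vessels grow when endothelial cells sense vascular endothelial growth factor (VEGF), a protein made by cells short of oxygen. Kdr (VEGF receptor 2) carries most of the growth signal, whereas Flt1 (VEGF receptor 1) binds the same factor tightly, signals weakly, and is also made as a soluble form that holds the factor back. A second system, the angiopoietins and their receptor Tek (Tie2), steadies resting vessels, with Angpt2 loosening them so that they can sprout or regress. In bone, vessel growth and bone formation are known to run together.

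Signals are given as log2 of the array's processed intensity relative to that array's 75th percentile, so 0 is the 75th percentile and a difference of 1 is a doubling. Levels of different probes have no common scale, so groups are compared within a probe. Differences were tested with limma over all 22718 genes, and a gene was called higher or lower at a Benjamini-Hochberg adjusted p under 0.05.

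Against control, 2 of the 10 genes were called in each ablated group, all of them lower. Vwf and Kdr fell after drilling, and Vwf and Esm1 fell after laser ablation. Over all genes, 16.2% were called lower and 9.99% higher after drilling, and 13% lower and 9.26% higher after laser ablation, so 2 of 10 is close to the share of all genes. No member was called higher in either comparison with limma. At an unadjusted p under 0.05, 4 were higher and 3 lower after laser ablation, and 1 higher and 2 lower after drilling. Over all 22718 genes, 8841 passed that mark in either direction after laser ablation, and 9317 after drilling. In the authors' deposited comparison tables, Emcn (0.71, adjusted p = 0.0144, and 0.60, adjusted p = 0.0232) and Flt1, through its probe at base 5682 (0.70, adjusted p = 0.0155, and 0.61, adjusted p = 0.0236), were higher after laser ablation and after drilling. Angpt2 was higher there after laser ablation (0.66, adjusted p = 0.0109 in the authors' deposited table). Vwf, through its probe at base 8595, was lower there after laser ablation (-0.73, adjusted p = 0.0118) and after drilling (-1.15, adjusted p = 0.00193). Kdr was lower there after drilling (-0.61, adjusted p = 0.0302) and Esm1 after laser ablation (-0.61, adjusted p = 0.0300). The share of all lines called in those tables was not worked out. A limma fit of the deposited log2 table left Emcn after drilling without a call. The members did not share a direction: 5 of the 10 differences were above 0 in each comparison, with a median of 0.01 after drilling and 0.13 after laser ablation, beside -9.7e-05 and 0.02 for all genes. The plot of differences with their intervals shows the 10 genes on both sides of 0. Since both comparisons use the same 4 control samples, they are not independent of each other.

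**Figure D1:**
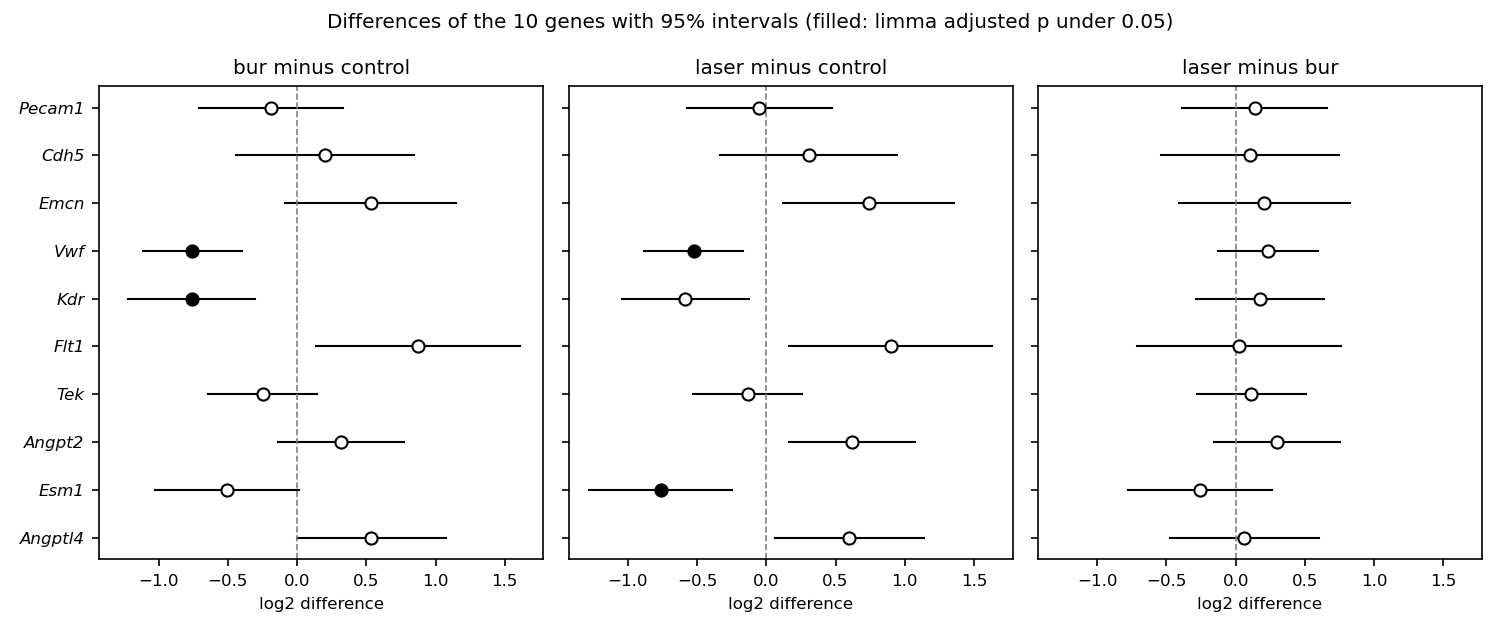
Log2 differences (horizontal axis) of the 10 genes in the 3 comparisons, with 95% intervals as lines and filled points for genes called at a limma adjusted p under 0.05. Vwf and Kdr are filled in bur minus control, Vwf and Esm1 in laser minus control, and no gene in laser minus bur, where all 10 intervals cross 0.

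All 4 control arrays lay on 1 slide with 1 scan number, and the 8 arrays of ablated bone on a second slide with another, so slide and ablation cannot be told apart in any comparison with control. On the second slide, bur and laser arrays had different position numbers in their barcodes, so position and treatment cannot be told apart either. An array had 58.1% to 67.0% of its probes well above background, the 75th percentile of intensity ranged from 674 to 1311, and arrays of a group correlated at 0.948 or above. Control replicate 3 lay closer to the ablated samples than the other controls on the first principal component, which held 49.5% of the variance. All 8 bone cell markers were well above background on every array. Of them, 5 were called higher after laser ablation and 0 after drilling with limma (2 at an unadjusted p under 0.05), with medians of 0.85 and 0.24. Of 6 measured neutrophil markers, 3 were called lower after laser ablation and 2 after drilling, with medians of -1.57 and -1.41. The summed level of the bone cell markers was 442 to 627 times the 75th percentile in control, 388 to 572 in bur and 441 to 625 in laser samples, and that of the neutrophil markers 193 to 541, 118 to 201 and 48.3 to 259. Their part in the results below was not tested.

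**Figure D2:**
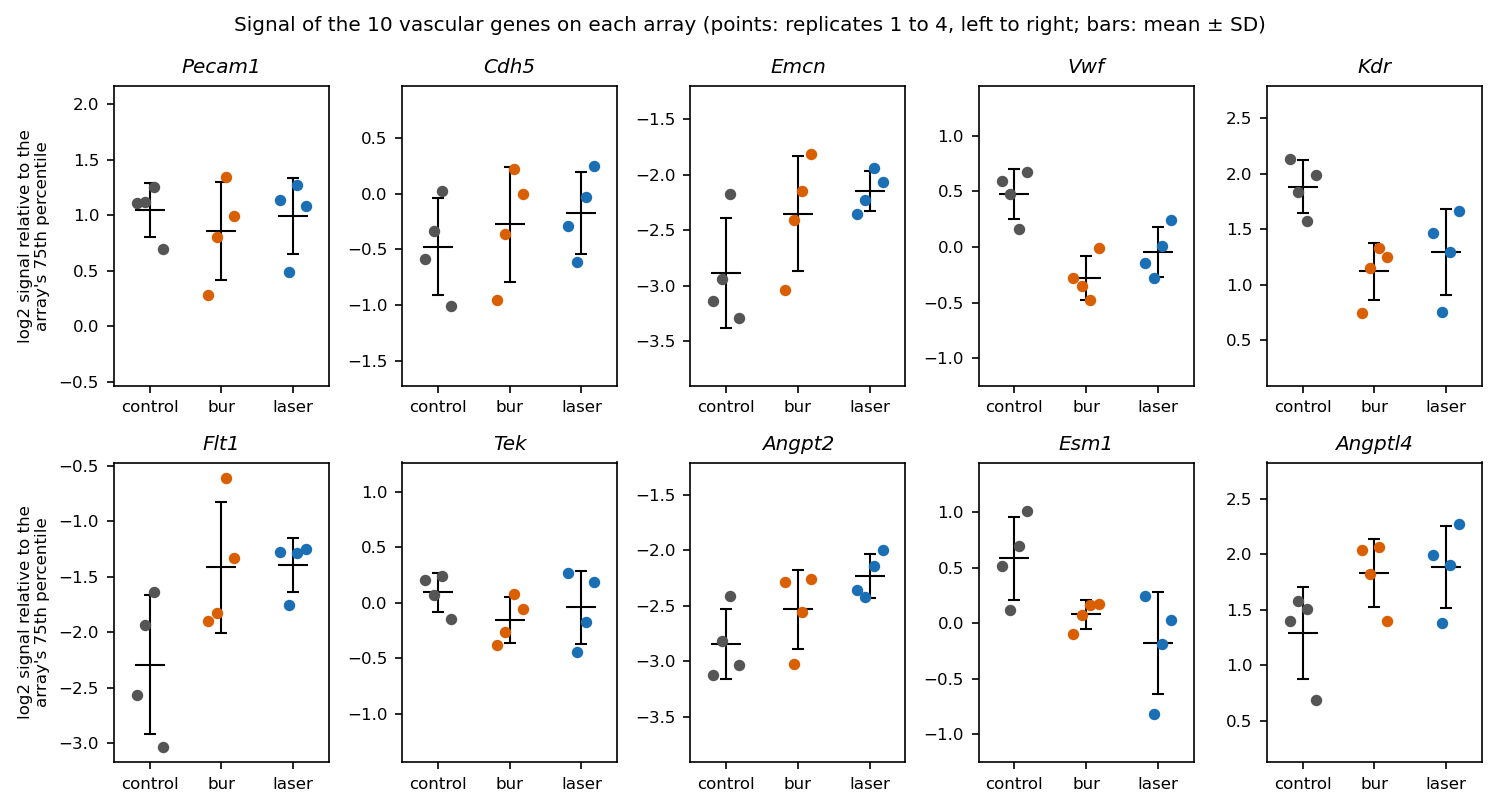
Signal of each gene on each array, as log2 relative to the array's 75th percentile (vertical axes all span the same range), for control, bur and laser. Points are replicates 1 to 4 from left to right and bars are mean ± SD (n = 4), and only for Vwf and Kdr do all 4 bur points lie below all 4 control points.

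Among the surface and junction genes, the general endothelial markers Pecam1 and Cdh5 gave no call. Pecam1, an adhesion molecule of endothelial cells and platelets, read 1.11, 1.12, 1.26 and 0.69 in control, 0.29, 0.80, 1.34 and 0.99 in bur, and 1.13, 0.49, 1.27 and 1.08 in laser samples. The 3 groups overlapped, and both the lowest and the highest value came from bur bone. The difference was -0.19 (SE 0.24, limma adjusted p = 0.576) after drilling and -0.05 (SE 0.24, limma adjusted p = 0.891) after laser ablation. Cdh5, the cadherin that seals junctions between endothelial cells, read -0.58, -0.33, 0.03 and -1.01 in control, -0.96, -0.36, 0.22 and 0.00 in bur, and -0.29, -0.61, -0.03 and 0.25 in laser samples. These groups overlapped too, with differences of 0.20 (SE 0.29, limma adjusted p = 0.632) after drilling and 0.30 (SE 0.29, limma adjusted p = 0.462) after laser ablation. A second, dimmer Cdh5 probe differed by -0.28 after drilling and 0.23 after laser ablation, so the direction after drilling differed between the 2 probes. The 95% intervals ran from -0.71 to 0.33 after drilling and -0.57 to 0.47 after laser ablation for Pecam1, and from -0.44 to 0.84 and -0.34 to 0.95 for Cdh5. In whole bone, fewer cells of a type and less RNA per cell cannot be told apart.

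Emcn encodes endomucin, a glycoprotein of capillary and venous endothelium that is abundant in bone capillaries close to sites of bone formation. Its probe joins pieces of transcript that lie apart in the genome, since its 60 bases span 296 genomic bases (chr2:234958254-234958549 in rn4, plus strand), and it is shown here because the reading rests on this probe alone.
Emcn probe: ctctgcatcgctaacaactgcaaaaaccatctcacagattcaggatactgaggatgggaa
Emcn read -3.13, -2.94, -2.17 and -3.29 in control, -3.04, -2.41, -2.14 and -1.82 in bur, and -2.35, -2.23, -1.94 and -2.06 in laser samples. Control replicate 3 was the only control within the laser range, and the lowest bur value lay among the controls. The difference was 0.74 (SE 0.28, limma adjusted p = 0.0781) in laser and 0.53 (SE 0.28, limma adjusted p = 0.177) in bur samples, so neither was called. With the replicate number as a block, the adjusted p of the laser difference was 0.0482. Without control replicate 3, Emcn was called higher in both, at 0.98 (limma adjusted p = 0.0141) in laser and 0.77 (limma adjusted p = 0.035) in bur samples. In each comparison this was the only 1 of 12 fits leaving out 1 array that gave a call. Of 10 other settings, 3 gave a call in laser and 0 in bur samples.

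Vwf, the clotting factor that endothelial cells and megakaryocytes store and release, was the gene with the lowest adjusted p of the 10. It is read by 2 probes of the same transcript, and the one that stood for it is shown because Vwf carried the only call shared by both ablated groups (chr4:161759938-161759997 in rn4, plus strand).
Vwf probe: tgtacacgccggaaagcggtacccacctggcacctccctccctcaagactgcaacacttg
Vwf read 0.59, 0.48, 0.16 and 0.68 in control, -0.28, -0.35, -0.48 and -0.01 in bur, and -0.14, -0.28, 0.01 and 0.24 in laser samples. All 4 bur values lay below all 4 control values, whereas the highest laser value passed the lowest control. Bur samples differed by -0.76 (SE 0.16, limma adjusted p = 0.0104), a level of 0.592 of control. Laser samples differed by -0.52 (SE 0.16, limma adjusted p = 0.0414), a level of 0.696 of control. Groups that did not overlap were found for 25.3% of all genes after drilling and for 19% after laser ablation, and among the members for 2 of 10 and 0 of 10.

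The second Vwf probe, farther along the transcript, also read lower in both groups. It read 1.58, 0.69, -0.17 and 1.43 in control, -0.78, -0.55, -0.83 and -0.71 in bur, and 0.44, -0.13, -0.38 and -0.03 in laser samples. Its differences were -1.60 (limma adjusted p = 0.00981 over probes) in bur and -0.90 (limma adjusted p = 0.0701 over probes) in laser samples. The call of Vwf after drilling held in all 12 fits that left out 1 array, with adjusted p from 0.00341 to 0.0336. The call after laser ablation held in 4 of 12, and was lost without control replicate 1, 2 or 4, bur replicate 1 or 2, or laser replicate 1, 2 or 3, where the difference was between -0.54 and -0.44 and the adjusted p between 0.0548 and 0.111. It was also lost under 4 of 10 other settings.

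Megakaryocytes and platelets, which also hold Vwf and Pecam1, moved in the same direction as Vwf. Of 12 measured megakaryocyte and platelet markers, 9 were called lower after drilling and 1 after laser ablation, with median differences of -2.18 and -1.27. Their summed level was 11.6 to 41.8 times the 75th percentile in control, 6.75 to 13.0 in bur and 8.44 to 14.4 in laser samples, and between 9 and 12 of them were well above background on an array. Their part in the Vwf result was not tested.

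Kdr, the receptor that carries most of the VEGF signal, fell after drilling. It read 2.13, 1.83, 1.57 and 1.99 in control, 0.75, 1.15, 1.33 and 1.25 in bur, and 1.47, 0.76, 1.30 and 1.67 in laser samples. Every bur value lay below every control value, and only laser replicate 4 reached into the control range. The difference was -0.76 (SE 0.21, limma adjusted p = 0.0239) in bur samples, a level of 0.59 of control, and -0.58 (SE 0.21, limma adjusted p = 0.065) in laser samples. The call after drilling held under all 10 other settings, and was lost without control replicate 1 (-0.68, limma adjusted p = 0.0702), control replicate 4 (-0.73, limma adjusted p = 0.0564) or bur replicate 1 (-0.64, limma adjusted p = 0.0666). After laser ablation, Kdr was called only without control replicate 3 (-0.69, limma adjusted p = 0.0339) and with array weights (-0.59, limma adjusted p = 0.0438).

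Flt1, the gene of VEGF receptor 1 and of its soluble form, read the other way in its brightest probe, without a call. That probe read -2.56, -1.93, -1.64 and -3.03 in control, -1.90, -1.82, -0.62 and -1.33 in bur, and -1.28, -1.76, -1.29 and -1.25 in laser samples. The highest control value, again replicate 3, was the only one within the laser range. The difference was 0.87 (SE 0.34, limma adjusted p = 0.0735) in bur and 0.90 (SE 0.34, limma adjusted p = 0.0727) in laser samples, so neither was called. Without control replicate 3 both passed, at 1.09 (limma adjusted p = 0.027) and 1.12 (limma adjusted p = 0.0259). In each comparison this was the only 1 of 12 fits leaving out 1 array that passed. Flt1 passed under 1 of 10 other settings in each.

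The 4 Flt1 probes fall on 2 transcript records. The 3 probes of NM_001309381 lie within one uninterrupted stretch of the genome (chr12:7957094-7960782 in rn4), and the means of all 3 were higher in ablated bone. Besides the brightest, the probe starting at base 5682 of that record differed by 1.17 (limma adjusted p = 0.0265 over probes) in laser and 0.81 (limma adjusted p = 0.0743 over probes) in bur samples. Its laser values, from -4.09 to -3.44, all lay above its control values, from -5.41 to -4.31. The probe starting at base 2053 differed by 0.95 (limma adjusted p = 0.0673 over probes) and 0.82 (limma adjusted p = 0.0972 over probes).

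The Flt1 probe of NM_019306 lies 74857 bases away and was far dimmer. It was well above background on 3 control, 4 bur and 1 laser arrays, and was not called in either comparison. Its fitted differences ran below 0, at -0.49 (limma adjusted p = 0.388 over probes) in bur and -1.18 (limma adjusted p = 0.0596 over probes) in laser samples. With only 1 laser array well above background, the size of its laser difference is not read. Of the 4 probes, only the one at base 5682 passed the threshold, in laser samples. The forms of the receptor that each record encodes were not analysed here.

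**Figure D3:**
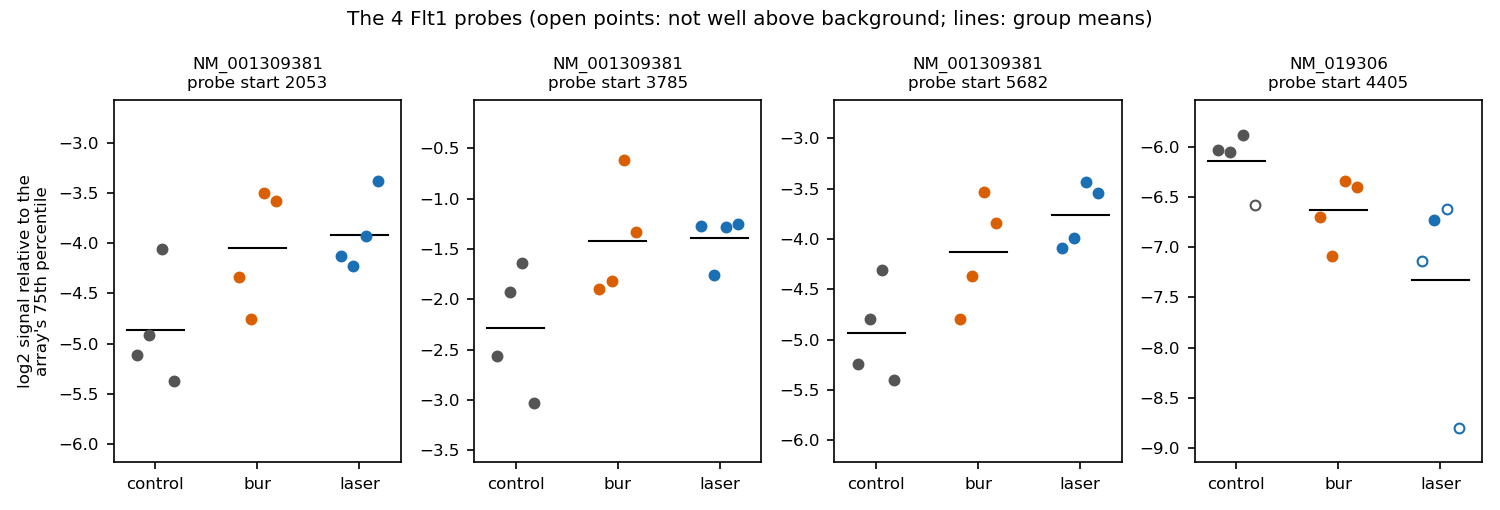
Signal of the 4 Flt1 probes on each array, as log2 relative to the array's 75th percentile, with lines at group means and open points where the probe was not well above background. The 3 probes of NM_001309381 have higher means in bur and laser than in control, and 3 of the 4 laser points of the dim probe of NM_019306 are open.

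Set against Kdr on the same array, the brightest Flt1 probe stood higher in every ablated sample than in any control. The difference between the brightest Flt1 probe and the Kdr probe was -5.02 to -3.21 in control, -2.97 to -1.95 in bur and -2.92 to -2.52 in laser samples, with no overlap between control and either ablated group. Only the shift can be read, since 2 probes have no common scale. In the group means this Flt1 probe was higher and Kdr lower in ablated bone, so the shift follows from those differences and is no further result. The share of other gene pairs without overlap was not worked out. This pair was chosen after its values were seen and was not tested.

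Promoter sequences were found in the RefSeq table (GRCr8) for 5 of the 10 genes: Emcn, Kdr, Flt1, Esm1 and Angptl4. The 250 bases before the start of Kdr (chr14:32571813-32572062, plus strand), Flt1 (chr12:12333180-12333429, plus strand) and Esm1 (chr2:46609003-46609252, plus strand) are shown because Kdr and Esm1 were each called lower in 1 comparison, while Flt1, the other VEGF receptor, was not called. Capitals mark GGAAG, the core letters bound by ETS factors of endothelial cells, and ACGTG or GCGTG, the core letters bound by hypoxia-inducible factors, on either strand.
Kdr promoter: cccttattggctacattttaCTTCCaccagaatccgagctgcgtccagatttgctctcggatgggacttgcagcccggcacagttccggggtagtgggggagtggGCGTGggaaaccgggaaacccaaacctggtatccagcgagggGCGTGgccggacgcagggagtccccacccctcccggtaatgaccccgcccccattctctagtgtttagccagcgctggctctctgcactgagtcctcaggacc
Flt1 promoter: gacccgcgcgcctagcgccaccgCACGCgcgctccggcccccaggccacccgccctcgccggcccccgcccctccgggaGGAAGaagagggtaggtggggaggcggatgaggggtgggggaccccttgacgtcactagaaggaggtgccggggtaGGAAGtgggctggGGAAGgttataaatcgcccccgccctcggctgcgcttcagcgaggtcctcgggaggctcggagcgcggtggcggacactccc
Esm1 promoter: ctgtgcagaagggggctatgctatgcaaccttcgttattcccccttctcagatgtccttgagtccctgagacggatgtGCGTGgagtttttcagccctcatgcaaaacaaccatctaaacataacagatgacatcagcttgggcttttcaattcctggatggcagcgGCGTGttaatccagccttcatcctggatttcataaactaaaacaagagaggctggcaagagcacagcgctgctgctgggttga
GGAAG was found 1 time in Kdr, 3 times in Flt1 and 0 times in Esm1. It was present in 4 of the 5 windows (all but Esm1) and in 63.3% of 33469 promoter windows of the same length. GCGTG was found 2 times each in Kdr and Esm1 and 1 time in Flt1, and occurs in 25.9% of all windows. ACGTG was found in Angptl4 alone, and in 16.6% of all windows. The longer ETS letters CCGGAAG, which contain GGAAG, were in 0 of the 5 windows and 7.27% of all, and the GATA letters AGATAA in 0 and 10.3%. The SOX letters ACAAT were in Emcn alone, and in 30.0% of all windows. These are matches of letters only. Kdr and Flt1 each held both the ETS core and GCGTG.

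Tek, the angiopoietin receptor, gave no call. It read 0.21, 0.06, 0.24 and -0.15 in control, -0.38, -0.27, 0.08 and -0.06 in bur, and 0.27, -0.44, -0.18 and 0.18 in laser samples. The 3 groups overlapped, and laser samples held both the highest and the lowest value. The difference was -0.25 (SE 0.18, limma adjusted p = 0.321) in bur and -0.13 (SE 0.18, limma adjusted p = 0.607) in laser samples, with 95% intervals from -0.64 to 0.15 and from -0.53 to 0.26.

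Angpt2, the ligand that loosens the Tek signal in activated vessels, read -3.12, -2.82, -2.41 and -3.03 in control, -2.28, -3.02, -2.56 and -2.26 in bur, and -2.36, -2.42, -2.14 and -2.0 in laser samples. Control replicate 3 lay just above laser replicate 2, and the other 3 controls lay below all laser samples. The difference was 0.62 (SE 0.21, limma adjusted p = 0.0529) in laser and 0.32 (SE 0.21, limma adjusted p = 0.271) in bur samples. The laser difference stood at the threshold: it passed under 5 of 10 other settings, and also without control replicate 3 (0.76, limma adjusted p = 0.0153) and without bur replicate 2 (0.62, limma adjusted p = 0.04).

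Esm1, a secreted proteoglycan that marks the tip cells of growing sprouts, fell after laser ablation. It read 0.52, 0.12, 0.69 and 1.01 in control, -0.10, 0.08, 0.17 and 0.18 in bur, and 0.25, -0.81, -0.18 and 0.03 in laser samples. Control replicate 2 lay within both other groups, and laser replicate 2 was the lowest of all. The difference was -0.76 (SE 0.24, limma adjusted p = 0.0402) in laser samples, a level of 0.589 of control, and -0.51 (SE 0.24, limma adjusted p = 0.13) in bur samples. This call held in 2 of 12 fits that left out 1 array, those without control replicate 2 or laser replicate 1. Without any of the other 10 arrays the difference was between -0.83 and -0.55, with adjusted p between 0.0511 and 0.103, the smallest change without laser replicate 2 (-0.55, limma adjusted p = 0.0976).

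Angptl4, a secreted inhibitor of lipoprotein lipase that rises in many tissues under low oxygen and with fatty acids, gave no call. It read 1.40, 1.58, 1.5 and 0.68 in control, 2.03, 1.82, 2.06 and 1.40 in bur, and 2.00, 1.39, 1.91 and 2.27 in laser samples. In each ablated group 3 of 4 samples lay above all controls, and the fourth lay within the control range. The difference was 0.54 (SE 0.25, limma adjusted p = 0.123) in bur and 0.60 (SE 0.25, limma adjusted p = 0.0963) in laser samples. Of 8 measured adipocyte markers, 6 were called lower in each comparison, with medians of -2.44 after drilling and -2.42 after laser ablation. Their summed level was 24.0 to 45.3 times the 75th percentile in control, 12.2 to 26.0 in bur and 15.2 to 18.7 in laser samples. The part of fat cells in the Angptl4 values was not tested.

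**Figure D4:**
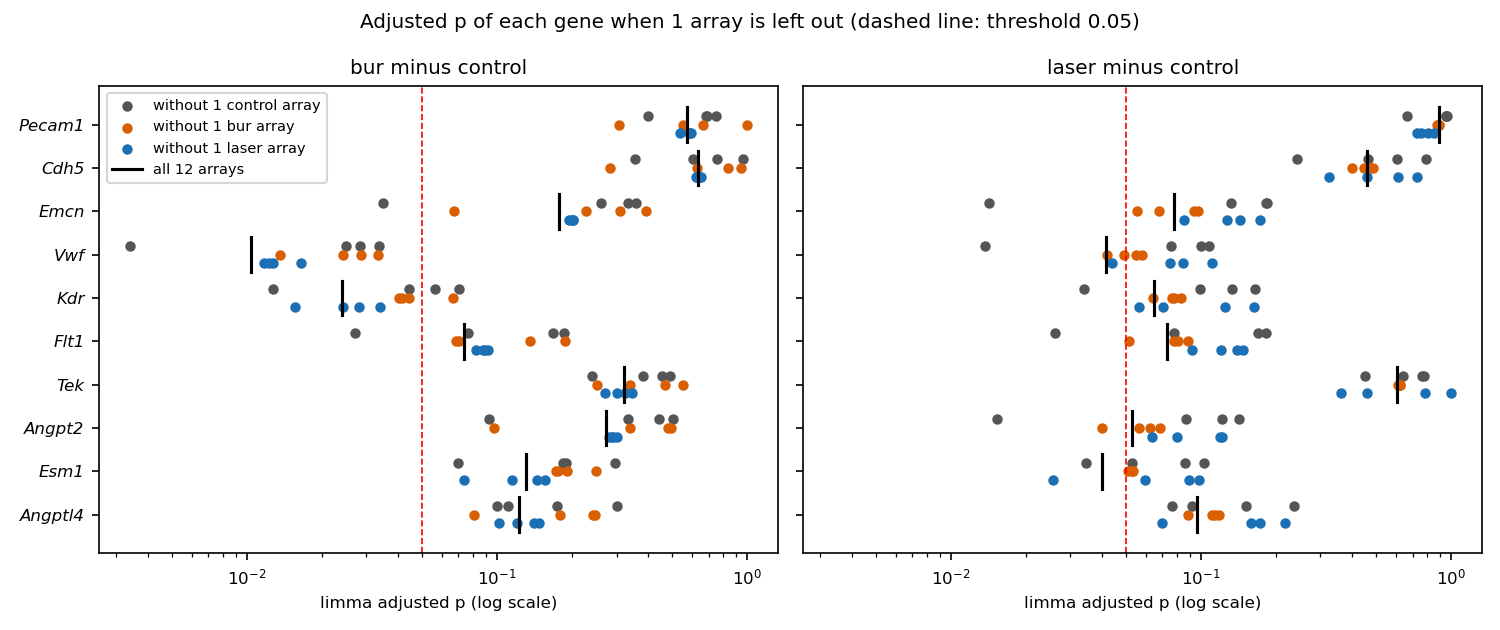
Limma adjusted p (log scale) of each gene when 1 of the 12 arrays was left out, coloured by the group of that array, beside the value from all 12 arrays (black line) and the threshold of 0.05 (dashed). Vwf in bur minus control stays left of the threshold in all 12 fits. Leaving out 1 control array, replicate 3, gives the lowest adjusted p for Vwf, Kdr, Emcn, Flt1 and Angpt2 in both panels.

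No difference between laser and drilled bone was called in the 10 genes. With limma, 0 of the 10 and 0 of 22718 genes were called, beside 0 members and 574 genes at an unadjusted p under 0.05, and groups did not overlap for 0 members and 2.15% of all genes. The differences ran from -0.26 for Esm1 to 0.30 for Angpt2, and their 95% intervals lay between -0.78 and 0.82. For Vwf, laser minus bur was 0.23 with an interval from -0.12 to 0.59, and for Kdr 0.18 with an interval from -0.28 to 0.64. Between samples with the same replicate number, Vwf was higher in laser than in bur samples in 4 of 4 pairs, by 0.14, 0.068, 0.48 and 0.25, and its second probe in 4 of 4, by 0.42 to 1.21. The probes that stood for the other 9 genes were higher in laser samples in 1 to 3 of 4 pairs, while the second Cdh5 probe and the Flt1 probe at base 5682 were higher in 4 of 4. The share of all genes higher in 4 of 4 pairs was not worked out, so these counts have no background to be set against. Probes of the same gene also read the same samples. A limma fit blocked on the replicate number left each of the 10 genes without a call in laser minus bur. Kdr and Esm1 were each called in 1 of the comparisons with control, while their direct difference between the treatments was not called.

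Across arrays, part of the genes varied together within groups. With each group's mean removed, Pearson's r over the 12 arrays was 0.89 for Pecam1 with Cdh5, 0.88 for Cdh5 with Flt1, 0.85 for Cdh5 with Emcn and 0.78 for Pecam1 with Tek. Vwf did not follow these markers, at -0.06 with Cdh5 and -0.06 with Pecam1, and gave 0.60 with Kdr. Kdr and Esm1 gave 0.64. All values on an array share its RNA sample, slide and scaling, so these correlations are a description.

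Gene names found in RefSeq, members aside, were ranked by their correlation with Cdh5 and with Angptl4 over the 12 arrays, without removing group means. Those most like Cdh5 were Col4a1 (r = 0.932), a collagen chain of basement membranes, Ecscr (0.929), an endothelial surface protein, and Lama5 (0.926), a laminin chain. Next came Adgrl4 (0.923), an endothelial adhesion receptor, and Efna1 (0.923), an ephrin ligand. Those most like Angptl4 were Parp6 (r = 0.901), Kat14 (0.897), LOC102554193 (0.881), Sfxn3 (0.880) and Nxpe2 (0.878).

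A wider set of 9 vascular lists gave the surroundings of these genes. Of 99 listed genes, 96 were measured, of which 6 were called higher and 12 lower after drilling, and 7 higher and 10 lower after laser ablation. Over all genes, 9.99% were called higher and 16.2% lower after drilling, and 9.26% and 13% after laser ablation. The genes called higher include Edn1 and Pdgfb, which passed the filter on dim probes through ablated samples alone. The median difference of the 96 genes was 0.14 after drilling and 0.26 after laser ablation, beside -9.7e-05 and 0.02 for all genes. With the replicate number as a block, 12 were called higher after laser ablation. Between laser and bur, limma called 0 of 96, beside 2 at an unadjusted p under 0.05. The medians of the 9 lists ran from -0.43 to 0.51 after drilling and from -0.30 to 0.60 after laser ablation, and the plot of these lists shows called genes on either side of them.

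**Figure D5:**
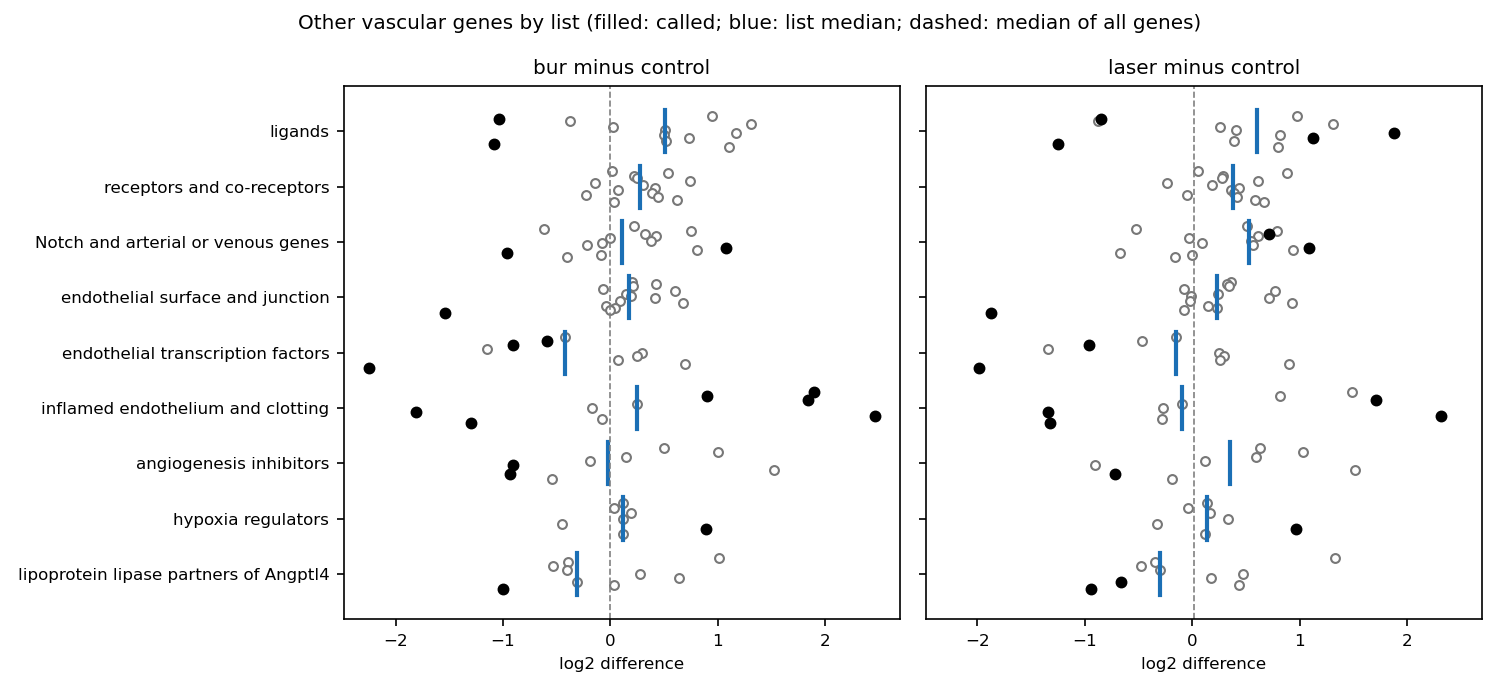
Log2 difference (horizontal axis) of each gene of the 9 vascular lists in bur minus control and laser minus control, filled where called, with list medians in blue and the median of all genes dashed. The ligand list has the highest median in both panels, with called genes on both sides of 0 after laser ablation and only below 0 after drilling, and the receptor list has no filled point.

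Among 12 measured ligands, growth factors of the same family moved apart. Vegfa, the main factor of blood vessel growth, was higher after laser ablation by 1.13 (SE 0.32, limma adjusted p = 0.0312), and differed by 0.73 after drilling (limma adjusted p = 0.107). Vegfc, the factor of lymphatic vessels, fell in both, with differences of -1.25 (SE 0.20, limma adjusted p = 0.00464) after laser ablation and -1.08 (SE 0.20, limma adjusted p = 0.00579) after drilling. Angpt1, the angiopoietin that steadies vessels, fell by 0.85 (SE 0.27, limma adjusted p = 0.0468) and 1.03 (SE 0.27, limma adjusted p = 0.0208) respectively, and with the authors' deposited log2 table its difference after drilling was -0.43 (limma adjusted p = 0.104). Pdgfb, which recruits pericytes, was well above background on 0 control, 2 bur and 2 laser arrays, so it passed the filter on dim probes through ablated samples alone. It was called higher after laser ablation (limma adjusted p = 0.0224), but with normexp background correction its fitted difference was 0.0038 (limma adjusted p = 0.99), so no fold is given.

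Of 14 other receptors and co-receptors, 0 were called with limma in either comparison, beside 1 after laser ablation and 2 after drilling at an unadjusted p under 0.05. The lowest p was that of Unc5b, a receptor for netrins, after laser ablation (0.67, unadjusted p = 0.0166, limma adjusted p = 0.0634), and of Eng, a co-receptor for TGF-beta ligands, after drilling (0.74, unadjusted p = 0.0274, limma adjusted p = 0.081).

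In the Notch and arterial or venous list of 14, 2 were called higher after laser ablation, and 1 higher and 1 lower after drilling. Jag1, a Notch ligand, rose in both, by 1.09 (SE 0.33, limma adjusted p = 0.0378) after laser ablation and 1.07 (SE 0.33, limma adjusted p = 0.0346) after drilling. Ephb4, a receptor of venous endothelium, was called higher after laser ablation (0.71, limma adjusted p = 0.0452), in 1 of 12 fits that left out 1 array and under 6 of 10 other settings. With normexp it was 0.20 (limma adjusted p = 0.404) and with the mean of probes 0.45 (limma adjusted p = 0.18). Notch1 fell after drilling with a difference of -0.97 (limma adjusted p = 0.0272). Of 14 surface and junction genes, Stab2, a scavenger receptor of sinusoidal endothelium, was the only one called. It differed by -1.87 (SE 0.44, limma adjusted p = 0.019) after laser ablation and -1.54 (SE 0.44, limma adjusted p = 0.0272) after drilling. With normexp Stab2 was -1.15 after laser ablation, and both calls were lost with the mean of probes. They held in 9 of 12 fits leaving out 1 array after laser ablation and 7 of 12 after drilling.

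Of 9 measured transcription factors, 2 were called lower after laser ablation and 3 after drilling. Tal1, shared by endothelial and blood cell precursors, differed by -1.98 (SE 0.61, limma adjusted p = 0.0403) and -2.25 (SE 0.61, limma adjusted p = 0.0229). Fli1, an ETS factor of endothelium and megakaryocytes, differed by -0.96 (limma adjusted p = 0.027) and -0.91 (limma adjusted p = 0.0264). With the mean of probes Fli1 was -0.47 (limma adjusted p = 0.108) and -0.41 (limma adjusted p = 0.152), and with the authors' deposited log2 table -0.38 (limma adjusted p = 0.118) and -0.35 (limma adjusted p = 0.143). Ets1, another ETS factor, was called after drilling (-0.59, limma adjusted p = 0.0378), but was -0.045 with the mean of probes (limma adjusted p = 0.898) and was called in 6 of 12 fits that left out 1 array. Of 10 erythroid markers, 10 were called lower after laser ablation and 9 after drilling, with medians of -2.33 and -2.34. Their summed level was 83.3 to 368 times the 75th percentile in control, 18.4 to 77.4 in bur and 25.1 to 80.0 in laser samples, and their part in the Tal1 values was not tested.

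In the list of 9 genes of inflamed endothelium and clotting, 2 were called in each direction after laser ablation, and 4 higher and 2 lower after drilling. Plat, which encodes tissue plasminogen activator, rose by 1.71 (SE 0.54, limma adjusted p = 0.0441) after laser ablation and 1.84 (SE 0.54, limma adjusted p = 0.0303) after drilling. With the replicate number as a block, the laser difference of Plat had an adjusted p of 0.0563, and without control replicate 4 its differences were 1.04 and 1.17. Selp, an adhesion protein that is stored with Vwf in endothelial granules and is also held by platelets, fell, with differences of -1.34 (SE 0.32, limma adjusted p = 0.0199) and -1.81 (SE 0.32, limma adjusted p = 0.00544). Vcam1, an adhesion protein for leukocytes, fell too (-1.32, limma adjusted p = 0.0297, and -1.30, limma adjusted p = 0.0263). Edn1, which encodes the vessel-narrowing peptide endothelin, was well above background on 0 control, 4 bur and 2 laser arrays, so it too passed the filter through ablated samples alone. It was called higher after drilling (limma adjusted p = 0.0324), but its fitted difference was -0.18 with normexp (limma adjusted p = 0.395), so no fold is given. Icam1, another adhesion protein for leukocytes, was also called higher after drilling (0.90, limma adjusted p = 0.0469) and is named here after its values were seen.

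Among 8 inhibitors of vessel growth, Timp3 fell in both, with differences of -0.72 (SE 0.18, limma adjusted p = 0.0228) after laser ablation and -0.93 (SE 0.18, limma adjusted p = 0.00705) after drilling, and with the mean of probes -0.60 (limma adjusted p = 0.0576) after drilling. Thbs1 was called lower after drilling (-0.90, limma adjusted p = 0.0484), but under only 4 of 10 other settings and in 4 of 12 fits that left out 1 array, and was -0.55 with the mean of probes (limma adjusted p = 0.13). Of 7 regulators of the response to low oxygen, Hif1a, the oxygen-sensitive factor itself, was the only one called, and rose by 0.96 (SE 0.21, limma adjusted p = 0.0163) and 0.89 (SE 0.21, limma adjusted p = 0.0146). Of 9 lipoprotein lipase partners of Angptl4, Pparg, a regulator of fat cell genes and of Angptl4, fell in both (-0.94, limma adjusted p = 0.0197, and -1.0, limma adjusted p = 0.0116). Ppara was called lower after laser ablation (-0.66, limma adjusted p = 0.0385), in 3 of 12 fits that left out 1 array and under 6 of 10 other settings, and was -0.28 with normexp (limma adjusted p = 0.215) and -0.26 with the authors' deposited log2 table (limma adjusted p = 0.102).

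These calls varied in how far they rested on single arrays. Vegfc and Hif1a in both comparisons, and Selp, Timp3 and Pparg after drilling, were called in all 12 fits that left out 1 array. The other 28 of 35 were lost in at least 1 of them, and 24 of 35 under at least 1 of the other settings. After laser ablation, Angpt1 was called in 2 of the 12 fits, Plat in 3, Jag1 and Tal1 in 4 each, and Vegfa in 6. Without control replicate 1, 15 of 17 calls after laser ablation and 13 of 18 after drilling were lost, and without laser replicate 2, 15 of 17 after laser ablation. Without control replicate 3, 0 were lost in either comparison.

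Markers listed for cells that wrap vessels and line lymphatics were read as well, and some are shared with other cells. Of 10 mural cell markers, 3 were called higher after laser ablation and 0 after drilling with limma (3 at an unadjusted p under 0.05), and the median differences were 0.68 and 0.44. Their summed level was 2.58 to 7.35 times the 75th percentile in control, 5.95 to 8.35 in bur and 7.48 to 9.77 in laser samples. Of 5 lymphatic markers, Prox1, the factor that sets lymphatic identity, and Reln fell in both comparisons. Prox1 differed by -2.31 (limma adjusted p = 0.00348) after laser ablation and -2.45 (limma adjusted p = 0.00209) after drilling. Mmrn1, which platelets also hold, fell after drilling (-2.09, limma adjusted p = 0.0213). Pdpn, which osteocytes also express, rose (1.41, limma adjusted p = 0.037, and 1.29, limma adjusted p = 0.0437), and Lyve1 was not called (0.21 and 0.47). Of 9 monocyte and macrophage markers, 3 were called higher after laser ablation and 5 after drilling.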

How the data were processed

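Each of 12 one-colour arrays carried Cy3-labelled cRNA from 200 ng of total RNA. The authors deposited scanner output as spot intensity on a linear scale, made with Agilent Feature Extraction 11.0.1.1 and with probe positions in rn4, per the file headers. A deposited log2 table, quantile-normalized by its name, served as an alternative, and 3 deposited comparison tables give log2 changes and p-values. Values here are log2 of the processed intensity minus log2 of its 75th percentile on the array, control spots aside. Spots flagged as outliers were left out, and spots of a probe were averaged. Of 45598 probes, 29775 were well above background on at least 4 of 12 arrays and were kept, and each gene name was read from its brightest kept probe.

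Differences were fitted with limma 3.58.1 in R 4.3.3 (lmFit and eBayes, all 12 arrays, group means, two-sided) and adjusted by Benjamini-Hochberg over 22718 genes, and probe-level values over the 29775 probes. The fit was tested on simulated data. All 10 members were named. From each other vascular list and comparison, at most 3 called genes by size of rise and 3 by size of fall were named. Without a call, the gene with the lowest p was named. The rule also named the 5 names in RefSeq most correlated with Cdh5 and with Angptl4. The values of 1 gene that this rule names are not reported here, though the counts of its list include it. Members and lists were chosen with earlier results of these data known. Samples with the same replicate number deviated together between laser and bur (r 0.16 to 0.34) and between laser and control (r 0.13 to 0.34), but not in every pair between bur and control (r -0.05 to 0.28). Alternatives were another background correction, other scaling, filters, probe averaging, a replicate block, fewer groups, array weights, the deposited log2 table, and leaving out each array.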

Additional observations from a re-analysis of the deposited data

Results flagged for a closer look

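Flt1 in laser replicate 2 read -1.76, away from the other 3 laser samples, which lay between -1.29 and -1.25. It met Dixon's criterion at the 95% level for a group of 4. The 10 genes in 3 groups gave 30 such checks and 1 was met, where chance alone meets about 1 in 20.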

How the results depend on the processing

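The calls of Vwf and Kdr after drilling held under all 10 other settings, and members called lower there numbered 1 to 2 when 1 array was left out. Members called higher after laser ablation were 1 with quantile normalization, with the 75th percentile over detected probes, with detection on all 12 arrays or with the replicate block, 2 with array weights and 3 in the authors' deposited log2 table (Angpt2, Emcn and Flt1, the last through another probe), and 0 to 3 with 1 array left out. Members called lower there were 1 with normexp, quantile normalization or the percentile over detected probes, 0 without the detection filter or with only the 2 groups compared, and 0 to 2 with 1 array left out. After drilling, 1 was called higher with normexp (Angptl4) and 1 in the deposited table (Flt1), and 0 to 2 with 1 array left out. Among members the replicate block changed the call of Emcn after laser ablation and no other call.

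Over all genes, normexp gave 1187 higher after laser ablation and 6306 lower after drilling, with a median of all genes of -0.24 after drilling. No detection filter gave 1199 and 5750, and 1 gene higher in laser minus bur. With only the 2 groups compared, 651 were higher and 1107 lower after laser ablation and 1483 higher after drilling, and array weights gave 3534 and 3631 higher. With 1 array left out, genes called after laser ablation ranged from 449 to 3861 higher and 796 to 4133 lower, and after drilling from 878 to 3794 higher and 1911 to 4603 lower. Other vascular genes called higher after laser ablation were 2 without the filter, 3 with the 2 groups compared, 12 with the replicate block and 11 with array weights, and lower 4 with the 2 groups compared. After drilling 10 were higher with the block, 1 with the 2 groups compared, and 7 lower with the mean of probes. With 1 array left out they ranged from 1 to 25 higher and 1 to 15 lower after laser ablation, and from 1 to 18 and 4 to 13 after drilling. The cause of these shifts was not tested.

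Among the members, small differences changed sign. Pecam1 in laser minus control was 0.015 with normexp, 0.011 with quantile normalization and 0.0022 with the percentile over detected probes. With the mean of probes, Cdh5 in bur minus control was -0.040 and Flt1 in laser minus bur -0.042, and with array weights Angptl4 in laser minus bur was -0.022. A called difference also changed sign: Edn1 in bur minus control was above 0 in the main fit and -0.18 with normexp. Edn1 was well above background on 0 control arrays, so the size of its main difference is not read. With 1 array left out, Pecam1 ran from -0.17 to 0.12 in laser minus control, -0.35 to 0.00098 in bur minus control and -0.052 to 0.31 in laser minus bur. In laser minus bur, Cdh5 ran from -0.12 to 0.27, Flt1 from -0.14 to 0.29, Emcn from -0.023 to 0.38 and Angptl4 from -0.083 to 0.23. 4 arrays a group limit the precision of all these values.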
